A study of Caenorhabditis elegans with 2 samples.

Results

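The 672 regions described here held ranks 329 to 1000 of a list of 11633 candidate binding regions of tagged tlp-1 in whole L1 larvae of Caenorhabditis elegans. They were selected on signal alone, as the regions that follow the 328 of highest signal, which make up the authors' thresholded list, and they were 5.78% of the pooled list. The libraries came from chromatin immunoprecipitation sequencing (ChIP-seq), which recovers the DNA fragments that a protein is attached to, and the 2 biological replicates formed the only group. Both came from strain OP321, which has the genotype unc-119(tm4063) III; wgIs321, and wgIs321 is the insertion that supplies eGFP-tagged tlp-1. Worms were L1 larvae of pooled male and female sex, obtained from the CGC, and fragments of 150 to 350 bp were sequenced. No group without the tag was analysed here, and a signal from a whole larva does not show in which cells the tagged protein was attached. The deposited lists hold no read counts, so depth per library is unknown.

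The protein encoded by tlp-1 is a zinc finger factor of the C2H2 kind, known from the T blast cell, which divides asymmetrically in the tail, and from the morphology of the male tail tip. Lists of bound regions are usually cut where 2 replicates stop ranking regions alike, and the regions just past such a cut can hold weaker binding as well as background. GATA factors are zinc finger proteins that attach to the letters GATA with preferred neighbours. In C. elegans the factor elt-2 is the main regulator of intestinal genes, elt-4 is its shortened neighbour, and elt-1 and elt-3 act in the epidermis. A GATA site is counted here as any of 4 words, namely AGATAA and AGATAG and TGATAA and TGATAG, read on both strands. The words can overlap one another in a run of bases.

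The sequences below show how the sites sat about the summit, the point of highest signal that the authors gave for each region. Each is 60 bases of the plus strand of ce11, centred on the summit and taken from the RefSeq genome of that build, with GATA sites in capitals. A site on the minus strand reads in reverse complement, so that TGATAA appears as TTATCA. Sequences are shown for chromosomes II to V and X. Within these, the first set holds the 6 regions of highest signal with a site within 50 bp of the summit and a named nearest gene, the next the 2 of highest signal with no site, and the last the 2 with the most sites.
acs-22, rank 329, chrX:8932497-8932556: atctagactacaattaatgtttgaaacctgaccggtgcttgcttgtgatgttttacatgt
osta-3, rank 330, chrII:14812791-14812850: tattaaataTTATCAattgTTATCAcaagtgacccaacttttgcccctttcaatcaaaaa
M01E10.3, rank 332, chrIII:2053588-2053647: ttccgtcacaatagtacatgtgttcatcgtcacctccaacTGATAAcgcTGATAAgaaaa
elt-4, rank 333, chrX:10475115-10475174: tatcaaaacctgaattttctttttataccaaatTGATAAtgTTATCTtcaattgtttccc
sec-10, rank 334, chrIV:7782578-7782637: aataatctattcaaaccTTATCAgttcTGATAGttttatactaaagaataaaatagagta
ifd-1, rank 336, chrX:8824589-8824648: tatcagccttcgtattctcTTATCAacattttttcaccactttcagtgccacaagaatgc
elt-1, no site, rank 345, chrIV:9617492-9617551: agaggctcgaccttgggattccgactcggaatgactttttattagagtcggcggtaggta
no gene assigned, no site, rank 353, chrV:20422949-20423008: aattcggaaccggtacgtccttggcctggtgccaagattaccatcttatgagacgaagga
srdh-1, most sites, rank 435, chrII:8266731-8266790: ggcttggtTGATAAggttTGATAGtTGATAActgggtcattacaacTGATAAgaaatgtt
aldo-2, most sites, rank 848, chrIII:5875883-5875942: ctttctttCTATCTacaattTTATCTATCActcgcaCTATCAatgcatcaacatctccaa

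The site counted for acs-22 lay 43.5 bp from its summit, beyond the stretch shown. The window of M01E10.3 held 4 sites, of which 2 fall whole in the 60 bases, and that of ifd-1 held 2, of which 1 does. The windows of srdh-1 and aldo-2 held 5 sites each, of which 4 fall in the 60 bases, and in aldo-2 a pair of them overlaps and reads as 1 run of capitals. The pair at sec-10, which encodes a subunit of the exocyst, came within 0.5 bp of the summit, measured to the centre of the nearest site.

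Values of signal chose these regions, so they are given as a description only. The signal has no stated scale, and it ran from 38.2 to 26.2 over ranks 329 to 1000, with a median of 29.8. The thresholded regions of the nuclear genome had a median of 48.9, and the 10633 nuclear regions below rank 1000 a median of 16.1. At the upper border the values were nearly continuous, with 38.193 at rank 328 (nearest gene Y48A6B.7) and 38.190 at rank 329 (acs-22, which encodes a fatty acid transport protein). At the lower border they were 26.2375 at rank 1000 (acy-3, an adenylyl cyclase) and 26.2356 at rank 1001 (ivns-1). The authors' −log10 q of the 672 regions lay between 0.596 and 1.33, with a median of 0.911. The values of the nuclear thresholded regions lay between 1.24 and 1.35, so the 2 ranges overlapped. All 672 lay on nuclear chromosomes, whereas 303 of the 328 thresholded regions did. Of the 672, 671 were 320 bp wide, and 639 overlapped no other region of the pooled list.

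A GATA site was found no further than 50 bp from the summit in 453 of the 672 regions, or 67.4% (exact 95% interval 63.7 to 70.9). Among all nuclear regions of the pooled list the share was 32.0%. It was 28.2% in the nuclear regions below rank 1000, and the odds of a site were higher at ranks 329 to 1000 than there (odds ratio 5.27, adjusted exact p = 6.56e-91). In the nuclear thresholded regions the share was 88.8%, and the odds at ranks 329 to 1000 were lower (odds ratio 0.261, adjusted exact p = 6.05e-13). Each p comes from a two-sided Fisher's exact test of a pair of shares. These p-values treat regions, not animals, as the unit, and were adjusted by Benjamini-Hochberg over 10 comparisons of shares. With the regions of ranks 329 to 1000 taken from the list of replicate 1 alone, the share was 45.2% and the odds ratio against lower ranks 2.63, and from that of replicate 2 alone they were 61.7% and 4.82. Against the next 1000 ranks only, where 42.3% had a site, the odds ratio was 2.82 (adjusted exact p = 3.68e-23).

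The share of regions with a site was lower at lower ranks. Over 4 successive groups of 168 regions it was 82.7%, 67.3%, 65.5% and 54.2%. Ranks 201 to 328, just above the border, had a site in 87.5% of regions, and ranks 1001 to 1500 in 46.2%. The interval of the first group, 76.2 to 88.1, overlapped that of ranks 201 to 328, 80.5 to 92.7. With only ranks 329 to 500 set against the thresholded regions the share was 82.6% and the difference did not pass the test (odds ratio 0.598, adjusted exact p = 0.172). The interval of the last group, 46.3 to 61.9, lay below that of the first, so the share differed within the 672 regions by more than its counting error. The plot of site and promoter shares by rank shows the course of both over the whole list.

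**Figure D1:**
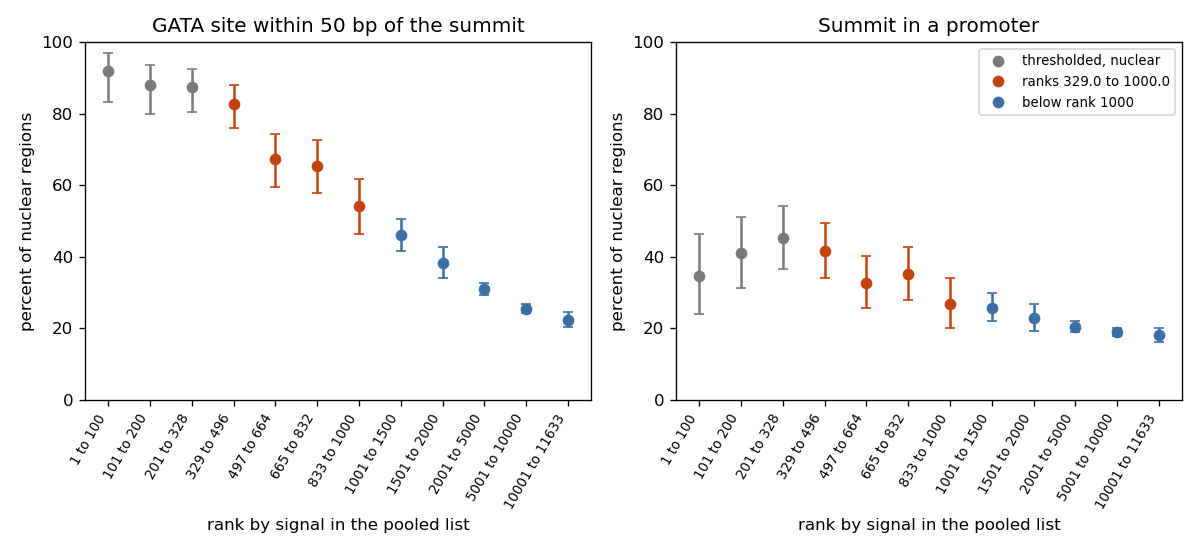
Percent of nuclear regions with a GATA site within 50 bp of the summit (left) and with the summit in a promoter (right), by rank of signal in the pooled list; points are shares, bars exact 95% intervals, and colours mark thresholded regions, ranks 329 to 1000 and lower ranks. The share with a site goes from 82.7% to 54.2% over the 4 orange points.

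Sites lay close to the summits. The median distance from summit to the nearest site was 14.5 bp in the 453 regions that had one. It was 11.5 bp in the thresholded regions and 19.5 bp in those below rank 1000. Only sites within 50 bp entered these distances, and a window with more sites tends to have a nearer one. The nearest site was within 25 bp in 336 of the 453, or 74.2%. Windows of the same length 1000 bp to either side held a site in 23.5% of cases for ranks 329 to 1000, 21.9% for the thresholded regions and 20.8% for the lower ranks. Over the whole nuclear genome, tiled in windows of 101 bp, the share was 19.8%. Beside their own flanks, the 672 regions thus had a site at the summit 67.4% of the time and 1000 bp away 23.5% of the time.

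**Figure D2:**
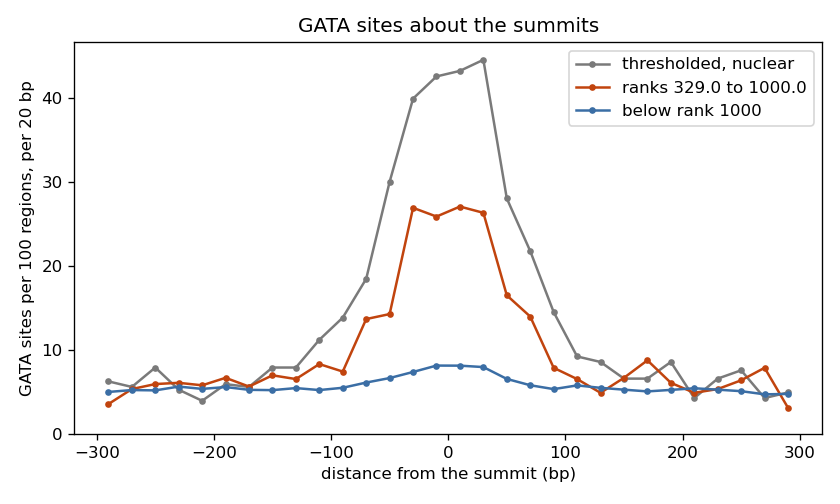
GATA sites per 100 regions in bins of 20 bp by distance from the summit, for thresholded nuclear regions, ranks 329 to 1000 and ranks below 1000; each line is 1 set of regions. The line of ranks 329 to 1000 peaks at 27.1 sites in the bin from 0 to 20 bp, against 43.2 and 8.14 in the same bin of the other sets.

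Regions often held more than 1 site, and TGATAA was the most frequent word. Of the 672 regions, 193 had 1 site in the window, 186 had 2, 60 had 3, 12 had 4 and 2 had 5. A window with 2 or more sites was found in 38.7% of them, in 66.0% of the thresholded regions and in 7.24% of the lower-ranked. TGATAA made up 524 of their 803 sites, or 65.3%, with 71.5% in the thresholded and 55.8% in the lower-ranked regions. AGATAA was present in 22.3% of the 672 windows, TGATAG in 8.78% and AGATAG in 6.70%. The longer word TGATAAG occurred in 30.2% of the windows, in 53.5% of those above and in 5.60% of those below. Most of the change along the ranks in these words was therefore in TGATAA and its extension by G, whose shares went from 78.5% to 51.3% to 16.6% and from 53.5% to 30.2% to 5.60% over the 3 sets.

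Of all 2080 words of 6 letters, counted once with their reverse complement and picked here after their values were seen, TGATAA differed most between ranks 329 to 1000 and lower ranks, with 51.3% against 16.6% of windows. The next were CTTATC with 40.2% against 8.07% and ATAAGA with 32.0% against 9.90%, both of which run into the same site. CTGATA followed with 28.9% against 7.87%, and GATAAC with 22.6% against 5.18%. Runs of A and T differed the other way, as AAAAAT was in 43.6% of the windows against 66.7%. These words overlap each other and are not separate findings.

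The remaining 219 regions had no site in the window. They were in promoters in 58 cases, or 26.5% (exact 95% interval 20.8 to 32.9), where the 453 with a site were in 37.7% (33.3 to 42.4). Their windows had a mean GC content of 32.0%, against 34.0% with a site, and 37.9% of them fell in the lowest of 3 classes by GC, against 11.5%. That class holds 38.5% of all nuclear pooled windows, since tied values make the classes unequal. Their median signal was 28.7 against 30.4. Counted against lower-ranked windows without a site, the words that stood out were AGAGAT, in 24 of the 219 (11.0% against 3.18%), and CGATAA, also in 24 (11.0% against 4.64%). Windows 1000 bp to either side of the 219 held AGAGAT in 6.16% of cases and CGATAA in 3.42%. CGATAA holds the GATA core with a first letter that the counted words lack. Each covers about 1 region in 10, and these words too were picked after their values were seen.

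Base composition differed between the sets, though not as a steady course along the ranks. Mean GC content was 34.5% at ranks 1 to 100, 35.0% at ranks 201 to 328 and 35.5% at ranks 329 to 496. Mean GC content of the window was 33.3% at ranks 329 to 1000, 34.8% in the thresholded and 29.1% in the lower-ranked regions. Within the lowest GC class, 52 of 135 regions of ranks 329 to 1000 had a site, or 38.5%, beside 23.7% of the lower-ranked and 15 of 16 thresholded regions. In the middle class the shares were 77.6%, 30.4% and 92.6%, and in the highest 73.4%, 32.2% and 86.5%. The odds ratio against lower ranks was 2.02 in the lowest class (adjusted exact p = 7.14e-04) and 5.82 in the highest (adjusted exact p = 2.11e-52). The gap was thus present at each level of GC and was narrow in windows richest in A and T.

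Summits lay in promoters, taken as 500 bp before to 200 bp after a protein-coding transcription start, in 229 of the 672 regions, or 34.1% (30.5 to 37.8). The share was 19.8% in the lower ranks (odds ratio 2.09, adjusted exact p = 3.56e-16) and 41.3% in the thresholded regions (odds ratio 0.736, adjusted exact p = 0.0736). The last difference missed the threshold of 0.05. Within either replicate list alone, the same ranks were set against those above them in that list, not against the authors' thresholded regions. That difference passed, at odds ratios of 0.636 without replicate 1 and 0.646 without replicate 2 (adjusted exact p = 0.00350 and 0.00760). Over the 4 groups by rank the share of promoters was 41.7%, 32.7%, 35.1% and 26.8%. Promoters that faced another start on the opposite strand, with both starts within 2000 bp, were 6.70% of the 672, 8.58% of the thresholded and 3.16% of the lower-ranked regions.

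Introns held 148 of the 672 summits, or 22.0%, fewer than the 33.7% of lower ranks (odds ratio 0.555, adjusted exact p = 2.72e-10). The thresholded regions had 17.5% in introns, and the difference did not pass the test (odds ratio 1.33, adjusted exact p = 0.206). With replicate 1's list alone, the same ranks against those above them in that list did pass (odds ratio 1.97, adjusted exact p = 1.66e-04). Intergenic summits were 35.7% at ranks 329 to 1000, 35.5% below (adjusted exact p = 0.901) and 34.3% above (adjusted exact p = 0.797). Coding exons held 18 regions, untranslated parts 20, and other genes, such as those of non-coding RNA, 17. A GATA site was present in 74.7% of the promoter regions among the 672, 68.2% of those in introns and 62.5% of the intergenic, against 35.6%, 24.3% and 27.9% in lower ranks.

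**Figure D3:**
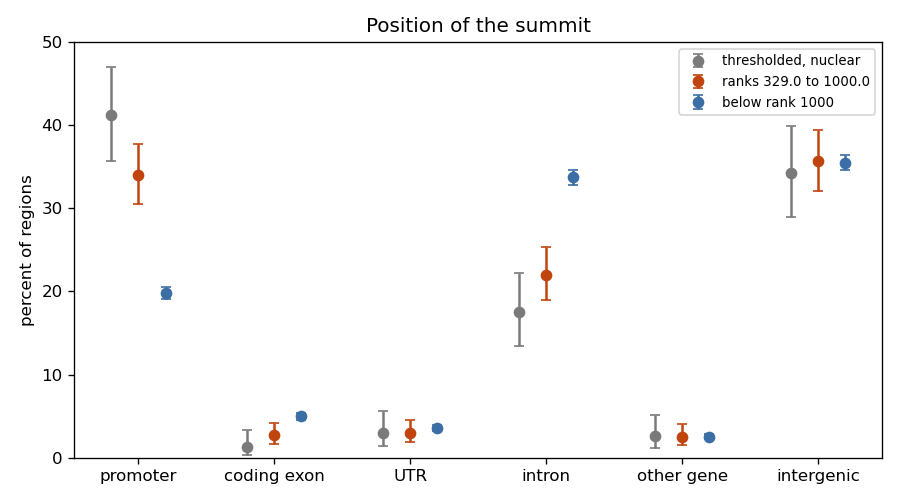
Percent of regions by position of the summit (promoter, coding exon, UTR, intron, other gene, intergenic) for thresholded nuclear regions, ranks 329 to 1000 and lower ranks; points are shares and bars exact 95% intervals. Ranks 329 to 1000 lie at 34.1% in promoters and 22.0% in introns, between the other sets in both.

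The X chromosome held 130 of the 672 regions, or 19.3%, with 21.2% of the lower-ranked (odds ratio 0.894, adjusted exact p = 0.404) and 16.8% of the thresholded regions (odds ratio 1.19, adjusted exact p = 0.468). Neither passed, and the direction against lower ranks turned with either replicate's list alone, at odds ratios of 1.16 for replicate 2 and 1.27 for replicate 1. With the list of replicate 1 alone the X share was higher and passed against lower ranks (adjusted exact p = 0.0132). It also passed against the ranks above in that list, which are not the authors' thresholded regions (odds ratio 1.65, adjusted exact p = 0.00881). The share with a GATA site ranged from 62.0% to 73.1% over the 6 chromosomes.

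The lists of the 2 replicates ranked these regions differently. The pooled signal holds both replicates, so the ranks are a description, and the selection itself limits which pairs of ranks can occur. A region of replicate 1 overlapped 629 of the 672 and one of replicate 2 overlapped 665. Both did so in 623, or 92.7%, with 42 met by replicate 2 alone, 6 by replicate 1 alone and 1 by neither. The median of the best overlapping rank was 1741 of 28183 in replicate 1 and 843 of 23975 in replicate 2. For the thresholded regions the medians were 207 and 178.

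Of the 672, 70 were within the first 1000 of both lists, 158 of replicate 1 only, 304 of replicate 2 only and 140 of neither. Among the thresholded regions 81.5% were within the first 1000 of both, against 10.4% here. The ranks lay over 10-fold apart in 192 of the 623 regions found in both lists, or 30.8%, and replicate 2 gave the better rank in 63.1% of the 623. GATA sites were present in 55 of the 70 regions high in both lists, or 78.6%, in 70.9% of those high in replicate 1 only, in 68.8% of those high in replicate 2 only and in 55.0% of those high in neither. Of the 43 with no region in replicate 1, 21 had a site.

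**Figure D4:**
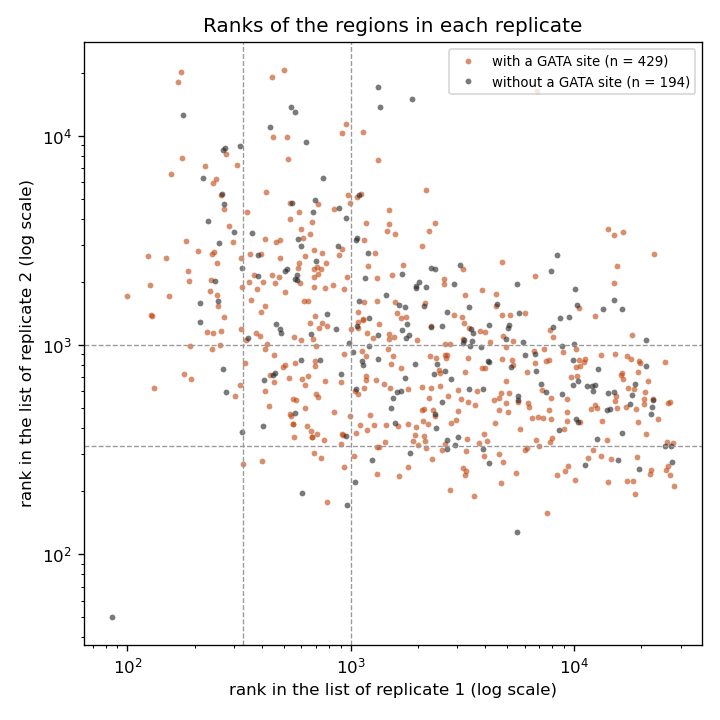
Rank of each of the 623 regions found in both replicate lists, replicate 1 on the horizontal and replicate 2 on the vertical axis, both on log scales; points are regions, coloured by whether a GATA site lay within 50 bp of the summit, and dashed lines stand at ranks 328 and 1000. Few points lie low on both axes, and the arms reach past rank 10000 in either list.

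Single regions show the extremes. The region next to ZK250.13 was at pooled rank 495 and at 329 and 270 in replicates 1 and 2, and that next to npa-1, which encodes a lipid-binding polyprotein, at 615, 402 and 279. The promoter region of scav-5, a CD36-like scavenger receptor gene, was at 341, 541 and 456. At the other end, the intron region of K07C11.8 had rank 26289 in replicate 1 and 265 in replicate 2, with 3 GATA sites. The region near nmt-1, which encodes an N-myristoyltransferase, had 173 and 20125, with 1 site. Rank 735, chrX:11094165-11094484, took ranks 85 and 50, but its summit lay 199 bp from that of a thresholded region at rank 70, whose replicate regions it shares. It was the only one of the 672 to overlap a thresholded region. Likewise the T26H5.8 pair at ranks 696 and 796 lay 230 bp apart and shared its replicate regions.

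Of the 672 summits, 512 had a protein-coding transcription start no further than 2000 bp away (76.2%), and the nearest such gene was assigned. The share was 77.6% in the thresholded and 65.5% in the lower-ranked regions. The median distance from summit to start was 477.5 bp, with 383 bp and 674 bp in those sets, and 67.6% of the assigned summits lay upstream of the start. The 512 regions fell to 480 genes, which are 8.34% of the 5756 genes nearest any nuclear region of the pooled list. Of the 480, 13 or 2.71% were also nearest a thresholded region, beside 3.91% of all assigned genes, and these 13 were 5.78% of the 225 genes there. Among the 13 were egl-27, elt-3, mthf-1, the intestinal intermediate filament gene ifb-2, and 2 transcription factor genes, mdl-1 and zip-5. These 6 were picked for their known roles. 32 genes were nearest 2 of the regions and none nearest more.

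The counts for 24 gene lists are set beside the background of 8.34% and are given without a test, since the lists were chosen with results of these data known. Most lists are short, and 78 different genes of the lists were at these regions in all.

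**Figure D5:**
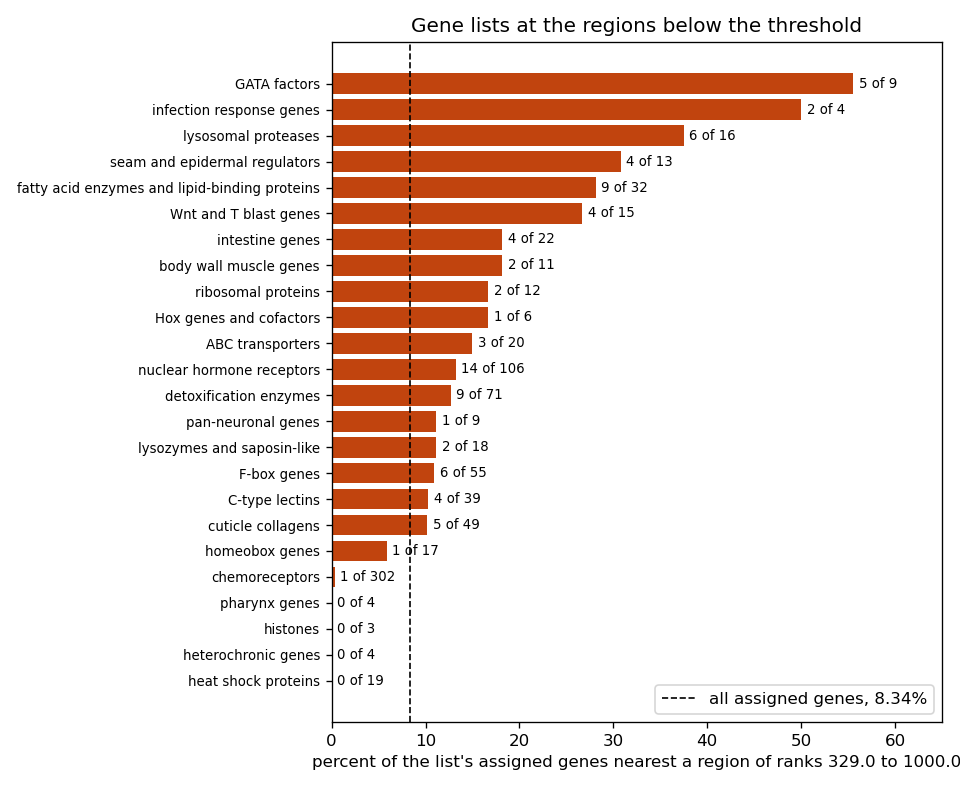
Percent of the genes of each list assigned to any pooled region that were nearest a region of ranks 329 to 1000; bars are shares, labels give genes at these regions of genes assigned, and the dashed line is the share over all assigned genes, 8.34%. GATA factors stand at 5 of 9 and chemoreceptors at 1 of 302.

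Genes of GATA factors were at these regions in 5 of 9 cases. The promoter region of elt-4 (rank 333, chrX:10474985-10475304) had a signal of 38.1 and held 2 sites, with ranks of 534 and 469 in replicates 1 and 2. The neighbouring elt-2 had 1 region 1604 bp upstream of its start (rank 342, signal 37.7, ranks 996 and 459) and another 344 bp upstream (rank 511, signal 32.7, ranks 2562 and 315), with 2 sites and 1 site. The gene elt-1 had an intron region without a site (rank 345, signal 37.6, ranks 950 and 368) and a promoter region with 3 sites (rank 620, signal 30.4, ranks 1804 and 261). These 3 genes had no thresholded region assigned. The gene elt-3 had a region with 3 sites in an intron (rank 503, signal 32.8, ranks 781 and 178). Its summit was 1294 bp upstream of the nearest elt-3 start and 3029 bp from that of a thresholded region at rank 318. The gene egl-27, whose product resembles MTA proteins and carries a GATA-type finger, had regions at ranks 382 and 629 and a thresholded one at rank 279. In all 8 regions the replicate 2 list gave the better rank, and the one at rank 629 had no overlapping region in replicate 1.

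Genes of the tail and of Wnt signalling, the pathway that orients the T cell division, were at these regions in 4 of 15 cases. The posterior Hox gene nob-1 had an intron region (rank 350, signal 37.5, 1 site, ranks 902 and 337) and another 589 bp upstream (rank 421, signal 35.1, no site, ranks 211 and 1284). It was the 1 of 6 Hox genes and cofactors counted. Besides egl-27, the other two of the list were mig-1, a Frizzled receptor gene, with a promoter region at rank 692, and pry-1, the Axin gene, with a region at rank 897. Their signals were 29.4 and 27.2, and both regions held a site. Ranks in replicates 1 and 2 were 6783 and 353 at mig-1, and 4760 and 1395 at pry-1. Seam and epidermal regulators counted 4 of 13, namely elt-1 and elt-3 with nhr-23, a regulator of moulting, at rank 457 and ceh-16, an engrailed gene, at rank 661. The last 2 regions held no site.

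Genes of digestion and of fat metabolism were at these regions in shares above the background of 8.34%, by count alone. So were most other lists, among them body wall muscle genes with 18.2%, as for intestine genes, and ribosomal proteins with 16.7%. Homeobox genes with 5.88%, chemoreceptors with 0.331% and the lists with no gene at these regions were below it. Lysosomal proteases had 6 of 16 genes at these regions, which were the aspartyl protease genes asp-12, asp-9, asp-5 and asp-2 and the cathepsin genes cpz-2 and cpr-9. All 6 held a site at the region of highest signal, and 5 of those regions were in a promoter, as the exception asp-5 had an intron region at rank 619 and a promoter region at rank 697. The signals of these best regions ran from 34.9 at asp-12 to 26.8 at cpr-9. Those of asp-12, asp-9 and cpz-2 also faced a divergent gene, namely asp-6, unc-77 and ifbp-1. Ranks in replicates 1 and 2 were 1215 and 464 at asp-12, 6489 and 448 at asp-9, and 3772 and 1163 at cpz-2. For the intron region of asp-5 they were 4634 and 557. Fatty acid enzymes and lipid-binding proteins had 9 of 32, among them acs-22 at rank 329, the elongase gene elo-9 at rank 436, the omega-3 desaturase gene fat-1 at rank 527 and the lysosomal lipase gene lipl-5 at rank 554. The last 2 held no site. In replicates 1 and 2, acs-22 had ranks of 14181 and 220, elo-9 1436 and 412, fat-1 2392 and 465, and lipl-5 255 and 1618. The other five were acs-6, acs-1, lbp-5, acs-4 and elo-3, at ranks 648, 708, 789, 843 and 861.

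The list of intestine genes counted 4 of 22, with elt-2, the microvillus gene eps-8 (rank 498), ifb-2 (rank 518) and the gap junction gene inx-15 (rank 766), and all 4 regions held a site. The half-transporter genes haf-4 and haf-9, known from gut granules, were at ranks 453 and 882, and with mrp-1 made up 3 of 20 ABC transporters. Detoxification enzymes counted 9 of 71, with ugt-25 (rank 396, 4 sites) and cyp-33D1 (rank 466, 2 sites) highest in signal. C-type lectins had 4 of 39, all in promoters and all with a site, from clec-50 at rank 398 to clec-168 at rank 625. In replicates 1 and 2 clec-50 had ranks of 6134 and 322, clec-186 905 and 666, clec-72 1294 and 680, and clec-168 4629 and 491. Lysozymes and saposin-like proteins had 2 of 18, spp-3 and ilys-4. Of infection response genes only 4 were assigned, and irg-8 and irg-7 were at these regions. Ranks in replicates 1 and 2 were far apart at some, with 21036 and 374 at ifb-2 and 503 and 20612 at haf-9. They were 13158 and 294 at cyp-33D1, 15028 and 1976 at ilys-4, and 9710 and 701 at irg-7. Nearer pairs were 2486 and 756 at eps-8, 700 and 585 at haf-4, and 662 and 386 at ugt-25. Those at spp-3 were 601 and 1051, and those at irg-8 were 1316 and 2079.

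Of gene groups with roles elsewhere, nuclear hormone receptors had 14 of 106, among them nhr-27 (rank 471), nhr-291 (rank 546) and nhr-247 (rank 553). Of the 14, nhr-12 (rank 628) and nhr-192 (rank 937) had their regions in the dense stretch of chromosome V described last. Homeobox genes had 1 of 17. The collagen list, made by name prefix, had 5 of 49, including col-107, col-76 and col-92, and also dpy-28, which by function belongs to the condensin of dosage compensation and is no collagen. Body wall muscle genes had 2 of 11, the troponin gene mup-2 and the paramyosin gene unc-15. No replicate 1 region overlapped that of col-92, and no replicate 2 region that of unc-15. Those of col-107, col-76 and mup-2 were overlapped in both. The list of pan-neuronal genes had 1 of 9, the tubulin gene tbb-1, whose promoter region also faces the divergent gene rib-2. Regions of other lists faced a divergent gene too, as at inx-15 (inx-16), irg-8 (Y39D8A.1), clec-50 (W04E12.9) and clec-168 (clec-167). Assignment to the nearest start does not tell which gene of such a pair a region belongs to. F-box genes had 6 of 55 and ribosomal proteins 2 of 12, rps-11 and rps-4, neither with a site. Chemoreceptors, a large family with 302 assigned genes, had 1, str-176. Heterochronic genes, pharynx genes and histones had none of 4, 4 and 3, and heat shock proteins none of 19.

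Small RNA genes lay within 1000 bp of few of the regions. Genes of snRNA were near 6 of the 672, or 0.893% (exact 95% interval 0.328 to 1.93), with 0.188% of the lower-ranked regions (0.115 to 0.290) and 1 of 303 thresholded regions, and this was not tested. Of these 6 only the region next to mpc-1 held a GATA site. Genes of tRNA were near 7 regions, or 1.04%, against 1.56% of all nuclear pooled regions and 3.30% of the thresholded regions. Genes of snoRNA were near 7, or 1.04%, against 0.982% of all nuclear pooled regions. Genes of miRNA were near 3, namely mir-79, mir-83 and mir-354, or 0.446% against 0.53%. Genes of rRNA were near 0, which allows a share of up to 0.547% by the exact interval, and near 0 of all nuclear pooled regions. Genes of piRNA were near 46, or 6.85%, against 10.7% of lower-ranked regions.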

How the data were processed

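The files were lists of regions on ce10 and ce11, 1 per replicate, 1 for both replicates pooled, and 1 cut by the authors at an irreproducible discovery rate (IDR). Signal, a value per region in the deposited lists, was made by the authors from the alignments and a control, on a scale that is not stated and differs between lists. The deposited −log10 q values were also computed by the authors. Aligner, caller and the IDR cut-off are not given in the sources used here; the control was not analysed here. Counts of reads are not in the lists, so intervals cover counting of regions only.

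Regions of the pooled ce11 list were sorted by signal. The regions and all lists of genes were chosen with earlier results of these data known. Summits were placed on the annotation of Ensembl release 115, with classes in the order promoter, coding exon, UTR, intron, other gene and intergenic, and the nearest protein-coding transcript start within 2000 bp gave the gene. Sequence came from RefSeq WBcel235, which is ce11. A replicate's rank is that of its best region overlapping by at least 1 bp. Shares have exact 95% Clopper-Pearson intervals and were compared by two-sided Fisher's tests, called at an adjusted p of 0.05. Site search, tests and annotation were tested on simulated data. Named genes were those of the 20 regions of highest and the 5 of lowest signal, up to 4 per list, extremes of replicate rank and of site number, and others named as picked later or listed in full. The names opt-2, psa-1, psa-4, elt-5, let-7 and lin-4 were not matched by symbol to a protein-coding gene and were not used. Tests ran in scipy 1.17.1 and tables in pandas 2.3.3, under Python 3.11.15. Alternatives were other site windows, promoter windows, ends of the ranks, lower-ranked sets, overlaps and gene assignments, single replicate lists, ce10, and, added after the data were seen, 3 classes by GC.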

Additional observations from a re-analysis of the deposited data

How the results depend on the processing

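Values are odds ratios unless stated. For single replicate lists, all sets were taken from that list, so its highest ranks stand in for the thresholded regions. 3 of the comparisons kept direction and call in every alternative run, namely GATA sites against lower ranks (12 alternatives, 2.02 to 11.2), promoters against lower ranks (10, 1.59 to 2.89) and introns against lower ranks (10, 0.513 to 0.798). GATA sites against thresholded regions lost the call only with ranks ended at 500 (0.598). Promoters against thresholded regions were 1.03 with ranks to 500 and 1.06 in the highest GC class, and passed the test at 0.626 with ranks to 1500 and at 0.636 to 0.646 with single replicate lists. Introns against thresholded regions passed at 1.47 with ranks to 1500 and at 14.5 in the lowest GC class, where 0 of 16 thresholded regions were intronic and 0.5 was added to each cell. They were 0.813 in the highest GC class, and 1.32 to 1.97 with single replicate lists, where 1.97, without replicate 2, passed. Intergenic shares against lower ranks turned to 0.931 and 0.981 with the wider and the narrower promoter window, 0.807 with ranks to 500 and 0.851 against the next 1000 ranks, with a range of 1.17 to 1.18 for single lists. Against thresholded regions they turned to 0.948 with the narrower window, 0.852 with ranks to 500, 0.588 and 0.986 in the lowest and highest GC classes, and ran from 0.852 to 1.18 for single lists. The X share against lower ranks was 1.12 with ranks to 1500, 1.10 in the lowest GC class, 1.16 to 1.27 for single lists, and 0.697 against the next 1000 ranks. Calls passed in both directions, at 0.697 and, without replicate 2, at 1.27. Against thresholded regions it was 1.19 to 1.65 for single lists, and passed at 1.46 with ranks to 1500 and at 1.65 without replicate 2. Where a call changed, the cause was not tested. Overlap in both replicate lists was 88.1% at a reciprocal overlap of 50 percent and 79.3% for summits within 100 bp, against 92.7%. Genes of the lists at these regions numbered 56 with starts within 1000 bp and 89 with both genes of a divergent pair, against 78. On ce10 the regions began at rank 321 with a signal of 38.3 and ended at 26.2. No paired analysis was possible because the labels give a single group. Depth per library is unknown, and 2 replicates give no spread for a single region's signal.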

Other observations

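Genes of the methionine cycle and of pathways linked to it recurred among the nearest genes. The list was written after these regions had been seen, so its counts are a description with no test. It reaches beyond the cycle to genes of folate, cystathionine and phosphatidylcholine metabolism. Of its genes at these regions, only sams-1, metr-1 and mtrr-1 belong to the cycle itself. The cycle makes the methyl donor S-adenosylmethionine and takes up the homocysteine that is left. Of 15 genes listed, 10 were nearest any nuclear region of the pooled list and 8 of these were nearest a region of ranks 329 to 1000, with 12 such regions between them, beside a background of 8.34% of assigned genes. The methionine synthase gene metr-1 had regions at ranks 485 and 993, and mtrr-1, which encodes its reductase, had 1 at rank 645. The S-adenosylmethionine synthetase gene sams-1 had regions at ranks 387 and 716, and the cystathionine beta-synthase gene cbs-1 had regions at ranks 426 and 475. The folate genes mthf-1 and mel-32 had 1 each, at ranks 366 and 990. Among those of highest signal, ranks in replicates 1 and 2 were 100 and 1718 at mthf-1 and 1031 and 293 at sams-1 (rank 387). They were 128 and 1385 at cbs-1 (rank 426), 2125 and 494 at cbs-1 (rank 475), and 6979 and 327 at metr-1 (rank 485). The phosphoethanolamine methyltransferase genes pmt-1 and pmt-2, which use the donor to make phosphatidylcholine, had 2 and 1. A GATA site was absent at mtrr-1 and at 1 of the 2 pmt-1 regions and present at the others. In the thresholded list the listed genes numbered 2, ahcy-1 and mthf-1. The genes sams-3, sams-4, sams-5, cbs-2 and cth-1 had no region assigned, and cth-2 only regions below rank 1000.

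One stretch of chromosome V stood apart. Between positions 10054975 and 10091785 of ce11, 50 regions of the pooled list followed each other with gaps of at most 3000 bp, and the next longest such run held 14. The stretch held 1 thresholded region and 11 of ranks 329 to 1000, at ranks from 360 to 958. None of the 11 had a GATA site within 50 bp of the summit, against 68.5% of the other 661. Their mean GC content was 34.7%. Their median ranks were 564 in replicate 1 and 716 in replicate 2, and 4 of them were within the first 1000 of both lists. The nearest genes included F57A8.6, R04B5.6, npr-39, nhr-12, F57A8.7, R04B5.1 and nhr-192, and 4 of the 11 summits lay in coding exons, out of 18 such summits among all 672. The run was noticed in the data, and its cause was not tested.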
